A study of Homo sapiens with 6 samples.

Results

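The matrix metalloproteinases (MMP), the ADAM and ADAMTS proteases and their tissue inhibitors (TIMP) were examined in T24, an established human cell line derived from a carcinoma of the bladder. Members were the protein-coding genes whose symbol is MMP, ADAM, ADAMTS or TIMP followed by a number, with or without a closing letter. They numbered 66 of the 58825 genes in the expression table, with 23 MMP, 20 ADAM, 19 ADAMTS and 4 TIMP genes. A further 8 entries with such symbols belong to pseudogene classes and are not members. Messenger RNA had been sequenced from 3 libraries with a control hairpin, shNC-1, whose genotype the labels give as WT, and from 3 libraries with a hairpin against DLGAP5, shDLGAP5-1. All 6 libraries come from the same line, grown in serum-containing medium. DLGAP5, which encodes a protein of the mitotic spindle, is targeted by 1 hairpin here, and nothing in the labels says that the replicates came from separate cultures. The p-values below therefore measure only how far these libraries spread, and that spread may be technical.

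With exceptions among the ADAMs, MMP, ADAM and ADAMTS proteins are metalloproteases that hold a zinc ion in the active site. MMPs cut collagens and other proteins of the extracellular matrix, some after secretion and some while anchored in the cell membrane. ADAMs are mostly membrane proteins that shed the outer part of other membrane proteins, and ADAMTS proteases are secreted and cut proteoglycans, procollagens and other matrix proteins. TIMPs bind the active site of these enzymes. In carcinomas the balance of these enzymes and inhibitors is studied for its part in invasion and growth factor release.

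Levels are FPKM, fragments per kilobase of transcript scaled to library size, so that levels can be set side by side between genes. Values in a sentence follow replicates 1 to 3 of shNC-1 and then of shDLGAP5-1, and means are given ± SD with n = 3 in each group. A gene was tested when it reached at least 1 FPKM in at least 3 libraries. Log2 fold changes are differences of log2(FPKM + 1), which understate the change of low genes, and "rose" or "fell" is used at a limma adjusted p under 0.05 over all 12714 genes tested. The targeted gene, DLGAP5, had 32.98, 32.7 and 29.7 FPKM in the shNC-1 libraries and 5.03, 4.0 and 7.51 in the shDLGAP5-1 libraries, lower in each of the latter as their label says. Estimated depth was 21400000, 28200000 and 24500000 fragments in shNC-1 and 13500000, 13500000 and 18600000 in shDLGAP5-1.

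The libraries carried keratins of simple epithelium at high levels, with KRT8 at 265.5 to 480.6 FPKM, but CDH1, the epithelial cadherin, stayed at or under 0.167 FPKM. The 6 urothelial markers summed to 2.81 FPKM in shDLGAP5-1 replicate 3, with UPK3A at 2.28 FPKM, and to at most 0.702 FPKM in the other libraries. Leukocyte markers stood apart in shDLGAP5-1 replicate 3. There the summed level of the 14 markers was 805.9 FPKM against 3.56 to 28.2 in the other libraries, with LYZ alone at 686.0 FPKM, PTPRC at 7.03 FPKM, and CD3E and MS4A1 listed at 0. ELANE, the neutrophil elastase, was at 39.1 FPKM there and at 0 to 0.924 FPKM in the other libraries, and MPO, a granule peroxidase, at 1.57 FPKM against 0 to 0.0524. CD14, another of the 14 markers, was not highest in that library. It was at 0.536, 0.468 and 0.482 FPKM in shDLGAP5-1 and at 0.128 to 0.232 FPKM in shNC-1. Of the MMPs best known from leukocytes, MMP8 was listed at 0, MMP9 was at 0.0467 FPKM and MMP25 at 0.176 FPKM in shDLGAP5-1 replicate 3. The 6 fibroblast markers summed to 1.35 to 6.10 FPKM, highest in shNC-1 replicate 1. In bulk RNA, fewer cells of a type and less RNA per cell cannot be told apart.

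The zinc-binding site is what makes a member of these families a protease, so its coding sequence is shown for the members that rose or fell. The site, 3 histidines and a glutamate spread over 11 codons, was found in the longest coding sequence of 54 of the 62 proteases: all 23 MMP, 12 of 20 ADAM and all 19 ADAMTS genes. The 8 without it were ADAM2, ADAM7, ADAM11, ADAM18, ADAM22, ADAM23, ADAM29 and ADAM32. Among the 19 tested proteases only ADAM23 lacked it, so the 11 members that rose or fell all carry the letters of an active site. The sequences below, 33 bases each, were read from GENCODE 29 transcripts, 5′ to 3′ on the coding strand, and capitals mark the codons of the histidines and the glutamate. ADAM9, which also has the site, is not shown.
MMP1: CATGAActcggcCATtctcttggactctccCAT
MMP11: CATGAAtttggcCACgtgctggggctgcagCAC
MMP14: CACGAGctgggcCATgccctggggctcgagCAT
MMP17: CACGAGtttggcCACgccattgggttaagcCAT
ADAM8: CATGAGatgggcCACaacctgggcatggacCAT
ADAM12: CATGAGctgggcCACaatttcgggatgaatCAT
ADAM15: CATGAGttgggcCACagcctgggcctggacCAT
ADAMTS1: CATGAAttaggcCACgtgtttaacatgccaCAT
ADAMTS6: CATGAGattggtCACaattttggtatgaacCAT
ADAMTS7: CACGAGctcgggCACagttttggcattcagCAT
The glutamate codon follows that of the first histidine in each. The sites of ADAM8 and ADAM15, which both rose, share 30 of 33 bases, the most of any pair shown. Those of MMP14 and ADAMTS1, which both fell, share 16 of 33, the fewest. ADAMTS6 and ADAM12, which both fell, share 27 of 33, and MMP11 and ADAMTS7, which both rose, share 19 of 33. ADAM12, which fell, shares 26 of 33 bases with ADAM8.

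Of the 66 members, 22 passed the filter, and of these 5 rose (ADAM8, ADAM15, ADAMTS7, MMP11 and MMP17), 6 fell (ADAM9, ADAM12, ADAMTS1, ADAMTS6, MMP1 and MMP14) and 11 did not pass the test. Of all genes tested, 24.8% passed, 15.3% as higher and 9.52% as lower in shDLGAP5-1, beside 50.0% of the tested members. MMP1 met the filter through the shNC-1 libraries alone, and ADAMTS7 and MMP15 through the shDLGAP5-1 libraries alone, so these 3 had to differ in level. Of the 22 members 7 (31.8%) passed with a log2 fold change of at least 1 in either direction, beside 4.59% of all genes tested. The median absolute log2 fold change was 0.53 in the tested members and 0.29 over all genes, and the signed medians were 0.10 and 0.03. Libraries of the 2 groups did not overlap for 16 members, 10 higher and 6 lower, which is 72.7% beside 43.9% of all genes. With 3 libraries against 3 an exact two-sided permutation test of 1 gene cannot go below p = 0.1, which is the value for each of these 16. Both directions occurred within 3 of the families: of 7 tested MMP genes 2 rose and 2 fell, of 8 ADAM genes 2 rose and 2 fell, and of 4 ADAMTS genes 1 rose and 2 fell. None of the 3 tested TIMP genes passed. Without shDLGAP5-1 replicate 3, the library with leukocyte markers, 5 members were higher and 6 lower, with TIMP1 passing in place of ADAM15, beside 24.7% of all genes.

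**Figure D1:**
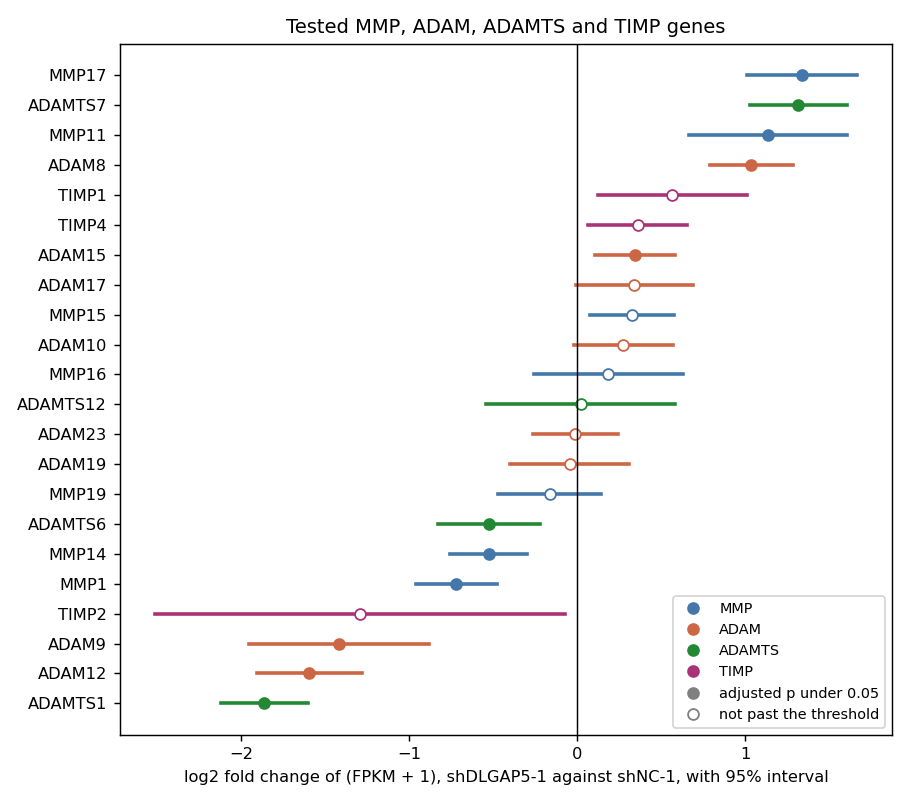
Log2 fold change of (FPKM + 1), shDLGAP5-1 against shNC-1, for the 22 tested members, ordered from the largest rise to the largest fall. Points are estimates, lines are 95% intervals from limma, colours are families, and filled points passed an adjusted p of 0.05; ADAMTS1 lies lowest at −1.86 and MMP17 highest at 1.34.

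The scaling of the libraries bears on the direction of small changes. With median-ratio scaling the median over all genes tested shifted by −0.10 (log2), and the share of passing genes that were higher went from 61.6% to 42.3%. That share was 48.1% with all libraries at the same total, 50.8% after quantile normalization and 50.0% after removal of a transcript length trend. Under these settings 4 to 6 members rose and 6 fell, beside 26.1% of all genes passing with median-ratio scaling, 21.0% at the same total, 23.4% after quantile normalization and 29.8% with the length trend removed. No member that rose or fell changed sign under any alternative run, and sign changes occurred in ADAM19, ADAM23 and ADAMTS12 alone among the tested members. Relative to the median of all genes, the log2 fold change of ADAM15 was 0.31 as deposited and 0.29 under median-ratio scaling, and that of MMP14 was −0.56 and −0.58.

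Among the secreted MMPs, 3 of 16 genes were tested. MMP1, the interstitial collagenase, which cuts fibrillar collagen, was at 1.35, 1.23 and 1.28 FPKM in shNC-1 and 0.398, 0.393 and 0.367 FPKM in shDLGAP5-1 (chromosome 11, 102789919 to 102798160, GRCh38). The 3 libraries of each group lay close together and the groups were far apart. MMP1 fell by 0.72 on the log2 scale (standard error 0.10, limma adjusted p = 0.00416), and its mean FPKM was 3.32 times as high in shNC-1 as in shDLGAP5-1. It passed the filter through the shNC-1 libraries alone. The level is low: at the estimated depths it rests on about 56.7, 68.1 and 61.7 fragments in shNC-1 and 10.6, 10.4 and 13.5 in shDLGAP5-1.

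MMP11, stromelysin-3, a secreted protease that furin activates inside the cell, moved the other way, at 1.12, 1.28 and 0.574 FPKM in shNC-1 and 3.79, 2.45 and 3.88 FPKM in shDLGAP5-1 (chromosome 22, 23768226 to 23784316). It was higher in every shDLGAP5-1 library, with replicate 2 the lowest of them and shNC-1 replicate 3 the lowest of all. MMP11 rose by 1.14 (standard error 0.20, limma adjusted p = 0.0087), a mean of 0.992 ± 0.371 against 3.37 ± 0.802 FPKM. The gene overlaps CHCHD10 on the opposite strand, whose mean was 27.8 FPKM in shNC-1 and 49.3 in shDLGAP5-1. Whether strand was used in counting is not given in the sources used here, and reads in the overlap cannot then be assigned to one of them. MMP19, a secreted protease that cuts basement membrane proteins, stood at 1.76, 1.39 and 1.26 FPKM against 1.06, 1.12 and 1.43 FPKM, with overlapping groups, and did not pass (−0.16, standard error 0.13, limma adjusted p = 0.394).

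Of 7 membrane-bound MMPs 4 were tested. MMP14, the membrane collagenase that also activates the precursor of MMP2, was the most abundant protease of the table's MMP, ADAM and ADAMTS genes in shNC-1, at 89.4, 94.0 and 98.3 FPKM, and stood at 61.6, 68.3 and 64.7 FPKM in shDLGAP5-1 (chromosome 14, 22836560 to 22849027). All shDLGAP5-1 libraries lay below all shNC-1 libraries. MMP14 fell by 0.53 (standard error 0.10, limma adjusted p = 0.00999), and its mean FPKM fell by 30.9%. Without shNC-1 replicate 2 the adjusted p was 0.0544 with a log2 fold change of −0.53.

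MMP17, which is held in the membrane by a lipid anchor, was at 4.59, 3.98 and 4.29 FPKM in shNC-1 and 14.1, 12.9 and 10.4 FPKM in shDLGAP5-1 (chromosome 12, 131828393 to 131851783). All shDLGAP5-1 libraries lay well above all shNC-1 libraries, and replicate 3 was the lowest of the shDLGAP5-1 libraries. MMP17 rose by 1.34 (standard error 0.14, limma adjusted p = 0.00137), the largest rise of log2(FPKM + 1) among the tested members. Its mean was 2.90 times that in shNC-1. MMP15, a membrane MMP with a transmembrane segment, was higher in each shDLGAP5-1 library, at 0.847, 0.996 and 0.888 FPKM against 1.38, 1.32 and 1.49 FPKM, and did not pass (0.33, standard error 0.11, limma adjusted p = 0.0629). MMP16, another of these, had overlapping groups at 0.995, 1.03 and 0.726 FPKM against 0.717, 1.78 and 1.15 FPKM (0.18, standard error 0.19, limma adjusted p = 0.508).

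**Figure D2:**
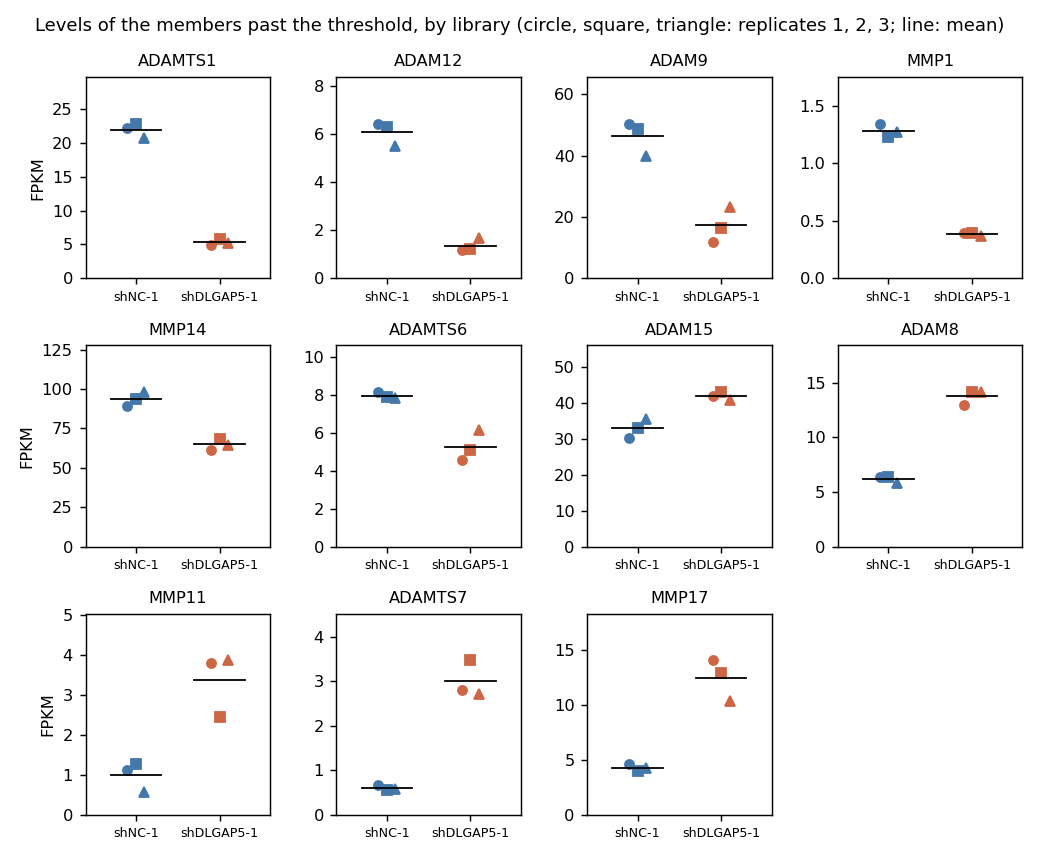
FPKM of the 11 members that rose or fell, by library, on linear axes that start at 0; circles, squares and triangles are replicates 1, 2 and 3 and lines are group means. The groups do not overlap in any panel, and the spread within shDLGAP5-1 is widest for ADAM9, with replicate 3 the highest at 23.4 FPKM.

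The ADAMs that fell are meltrins, membrane proteases with a disintegrin domain. ADAM9, the most abundant ADAM in shNC-1, was at 50.5, 48.9 and 39.9 FPKM there and at 12.0, 16.4 and 23.4 FPKM in shDLGAP5-1 (chromosome 8, 38996869 to 39105261). The shDLGAP5-1 libraries differed among themselves, replicate 3 being highest, and all lay below the lowest shNC-1 library. ADAM9 fell by 1.42 (standard error 0.23, limma adjusted p = 0.00646), and by 1.65 without shDLGAP5-1 replicate 3 (limma adjusted p = 0.00333).

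ADAM12, expressed in placenta and regenerating muscle and able to cut heparin-binding EGF, was at 6.43, 6.31 and 5.49 FPKM in shNC-1 and 1.17, 1.21 and 1.68 FPKM in shDLGAP5-1 (chromosome 10, 126012381 to 126388455). Its shDLGAP5-1 values lay near the filter, and those of shNC-1 all lay above 5 FPKM. ADAM12 fell by 1.59 (standard error 0.13, limma adjusted p = 0.000912), its mean being 4.49 times as high in shNC-1.

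ADAM8, a protease best known from leukocytes and from tumours, was at 6.34, 6.38 and 5.84 FPKM in shNC-1 and 13.0, 14.2 and 14.1 FPKM in shDLGAP5-1 (chromosome 10, 133262420 to 133276868). The 3 libraries of each group lay close together, and shDLGAP5-1 replicate 3, the library with leukocyte markers, was level with replicate 2. ADAM8 rose by 1.04 (standard error 0.10, limma adjusted p = 0.00132), and by 1.02 without that library (limma adjusted p = 0.00411).

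ADAM15, metargidin, which binds integrins, was at 30.1, 32.9 and 35.4 FPKM against 41.9, 43.0 and 40.7 FPKM (chromosome 1, 155050566 to 155062775). Each shDLGAP5-1 library was above each shNC-1 library by a small margin. ADAM15 rose by 0.34 (standard error 0.10, limma adjusted p = 0.0459), the smallest of the changes that passed, and the call was lost in 12 of 15 alternatives, among them the same-total and median-ratio scalings and each of the 6 fits without 1 library. Over the 15 alternatives its limma adjusted p ranged from 0.0251 to 0.175.

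The main sheddases, ADAM10 and ADAM17, are needed for the release of many membrane proteins, ADAM17 for tumour necrosis factor and several EGF receptor ligands and ADAM10 for Notch cleavage. ADAM10 was at 8.90, 8.69 and 7.33 FPKM in shNC-1 and 9.63, 9.70 and 11.4 FPKM in shDLGAP5-1 and did not pass (0.27, standard error 0.13, limma adjusted p = 0.156, 95% interval −0.02 to 0.57). With the length trend removed ADAM10 passed, at 0.33 (limma adjusted p = 0.0307). ADAM17 was at 15.9, 15.1 and 11.1 FPKM against 17.6, 18.7 and 17.1 FPKM and did not pass (0.34, standard error 0.15, limma adjusted p = 0.139, 95% interval −0.01 to 0.69). For both genes every shDLGAP5-1 library was above every shNC-1 library. ADAM17 overlaps IAH1 on the opposite strand, at means of 22.2 and 30.6 FPKM.

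ADAM19, meltrin beta, had overlapping groups at 3.67, 3.45 and 2.83 FPKM and 2.66, 3.87 and 3.06 FPKM (−0.05, standard error 0.15, limma adjusted p = 0.854, 95% interval −0.40 to 0.31). ADAM23, the tested ADAM without the zinc site, a cell surface protein of neurons that works through binding, stood at 2.08, 2.04 and 1.97 FPKM and 2.02, 2.12 and 1.86 FPKM (−0.01, standard error 0.11, limma adjusted p = 0.945, 95% interval −0.26 to 0.24). Of the tested members, ADAM23 had the log2 fold change nearest to 0.

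ADAMTS1, a secreted protease that cuts versican and aggrecan, had the largest fall of log2(FPKM + 1) among the tested members. It was at 22.2, 22.9 and 20.7 FPKM in shNC-1 and 4.90, 5.82 and 5.24 FPKM in shDLGAP5-1 (chromosome 21, 26835755 to 26845409). The libraries of each group agreed closely and the groups were far apart. ADAMTS1 fell by 1.86 (standard error 0.11, limma adjusted p = 0.00038), a mean of 21.9 ± 1.09 against 5.32 ± 0.468 FPKM. Its mean was 4.13 times as high in shNC-1, less than the 4.49 times of ADAM12. With a pseudocount of 0.1 the log2 fold changes were −2.03 for ADAMTS1 and −2.10 for ADAM12.

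ADAMTS6, a secreted protease that acts on fibrillin microfibrils, was at 8.18, 7.89 and 7.84 FPKM against 4.55, 5.10 and 6.15 FPKM (chromosome 5, 65148738 to 65481920). The shNC-1 libraries lay within a narrow range and the shDLGAP5-1 libraries below it, with replicate 3 the highest. ADAMTS6 fell by 0.53 (standard error 0.13, limma adjusted p = 0.0263). The call was lost when any 1 of the shNC-1 libraries, or shDLGAP5-1 replicate 2, was left out.

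ADAMTS7 and ADAMTS12 form a pair of related proteases that cut cartilage oligomeric matrix protein. ADAMTS7 was at 0.677, 0.553 and 0.584 FPKM in shNC-1 and 2.81, 3.48 and 2.71 FPKM in shDLGAP5-1 (chromosome 15, 78759206 to 78811464). All shNC-1 libraries were under 1 FPKM and all shDLGAP5-1 libraries well above it. ADAMTS7 rose by 1.31 (standard error 0.12, limma adjusted p = 0.00113), its mean being 4.96 times that in shNC-1, the highest ratio of means among the tested members. It passed the filter through the shDLGAP5-1 libraries alone. MORF4L1, an abundant gene that overlaps it on the opposite strand, had means of 163.8 and 169.6 FPKM, and the highest level of the 3 listed ADAMTS7 pseudogene copies was 0.0983 FPKM.

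ADAMTS12 had 14.8, 13.5 and 14.3 FPKM in shNC-1 and 22.0, 12.5 and 10.8 FPKM in shDLGAP5-1. Its shDLGAP5-1 replicate 1 was above all shNC-1 libraries and the other shDLGAP5-1 libraries were below them. It did not pass (0.02, standard error 0.24, limma adjusted p = 0.961, 95% interval −0.54 to 0.58).

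TIMP1, a secreted inhibitor of most soluble MMPs and a weak one of membrane MMPs such as MMP14, was the most abundant member. It was at 165, 187 and 200.0 FPKM in shNC-1 and 325, 302 and 205 FPKM in shDLGAP5-1 (chromosome X, 47582408 to 47586789). The first and second shDLGAP5-1 libraries lay well above the shNC-1 libraries and replicate 3 lay just above the highest of them. TIMP1 did not pass (0.56, standard error 0.19, limma adjusted p = 0.0676), and without shDLGAP5-1 replicate 3 it did, at 0.77 (limma adjusted p = 0.0117). It also passed after quantile normalization with every library kept, at 0.59 (limma adjusted p = 0.0194). With the length trend removed it was at 0.39 and did not pass (limma adjusted p = 0.0956).

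TIMP2, which inhibits MMP14 and also bridges MMP14 to the MMP2 precursor, split the shNC-1 libraries. It was at 21.1, 99.7 and 79.2 FPKM in shNC-1 and 19.3, 23.1 and 23.9 FPKM in shDLGAP5-1 (chromosome 17, 78852977 to 78925387). Replicate 1 of shNC-1 lay among the shDLGAP5-1 libraries and far below the other shNC-1 libraries. TIMP2 did not pass (−1.29, standard error 0.52, limma adjusted p = 0.112), and without shNC-1 replicate 1 it did, at −1.97 (limma adjusted p = 0.00484). The same library had the highest level of MMP2, at 0.613 FPKM against 0.0544 to 0.120 FPKM in the others. Of the fibroblast markers it was highest in DCN at 1.52 FPKM, COL1A2 at 1.66, LUM at 0.0797 and PDGFRA at 0.0548. COL1A1 was highest in shDLGAP5-1 replicate 3, at 2.61 FPKM against 2.53 in shNC-1 replicate 1. PDGFRB was highest in shDLGAP5-1 replicate 1, at 1.08 FPKM against 0.266. The part of MMP2 and these markers in the TIMP2 value was not tested.

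TIMP4 was at 1.12, 1.28 and 1.28 FPKM and 1.96, 1.52 and 2.12 FPKM, higher in each shDLGAP5-1 library, and did not pass (0.36, standard error 0.13, limma adjusted p = 0.0775). TIMP3, an inhibitor bound to the matrix that also blocks ADAM17, was below the filter at 0.104 to 0.449 FPKM. TIMP1 and TIMP4 lie inside introns of the synapsin genes SYN1 and SYN2.

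**Figure D3:**
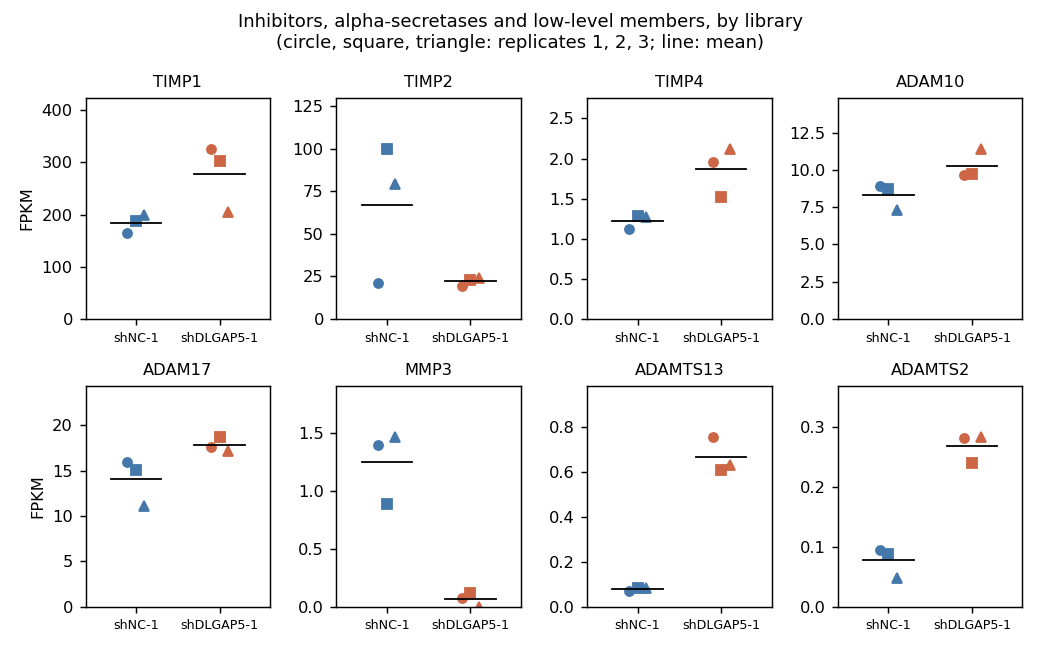
FPKM by library of TIMP1, TIMP2, TIMP4, ADAM10, ADAM17, MMP3, ADAMTS13 and ADAMTS2, on linear axes that start at 0, with circles, squares and triangles for replicates 1, 2 and 3 and lines for means. TIMP2 in shNC-1 replicate 1, at 21.1 FPKM, lies with the shDLGAP5-1 libraries, and TIMP1 in shDLGAP5-1 replicate 3, at 204.9 FPKM, lies near the shNC-1 libraries.

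The make-up of each family's message differed with the group, as sums of FPKM over all its members show. The MMP sum was 102.8, 105.7 and 109.3 FPKM in shNC-1 and 83.4, 89.2 and 84.7 FPKM in shDLGAP5-1, so that every shDLGAP5-1 library lay lower. MMP14 made up 88.6% ± 1.49 of it in shNC-1 and 75.6% ± 1.50 in shDLGAP5-1, and MMP17 made up 4.05% ± 0.37 and 14.5% ± 2.31. The ADAM sum overlapped between groups, at 111.0 to 125.4 FPKM and 101.7 to 115.2 FPKM. Within it ADAM9 went from 38.4% ± 2.23 to 15.6% ± 4.30 and ADAM15 from 27.4% ± 4.05 to 38.4% ± 2.99, so that ADAM15 took the larger share in every shDLGAP5-1 library and ADAM9 in every shNC-1 library.

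The ADAMTS sum was 46.3 to 48.7 FPKM in shNC-1 and 28.2 to 37.8 FPKM in shDLGAP5-1, again without overlap. ADAMTS1 took 46.2% ± 1.60 of it in shNC-1 and 17.0% ± 3.51 in shDLGAP5-1, and ADAMTS12 29.9% ± 1.48 and 46.1% ± 10.6. The TIMP sum overlapped, at 187.7 to 288.5 FPKM and 231.2 to 346.5 FPKM. The ratio of TIMP to MMP sums was 1.83, 2.73 and 2.57 in shNC-1 and 4.15, 3.66 and 2.73 in shDLGAP5-1. The third library of shDLGAP5-1 thus stood level with the second of shNC-1. TIMP1 over MMP14 was 1.85, 1.99 and 2.03 in shNC-1 and 5.28, 4.42 and 3.17 in shDLGAP5-1, higher in each library of the latter. TIMP2 over MMP14 did not follow, at 0.236, 1.06 and 0.806 in shNC-1 and 0.313, 0.338 and 0.369 in shDLGAP5-1. Its groups overlapped, with means of 0.701 and 0.340. These sums and ratios are descriptions, and no test was made of them.

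**Figure D4:**
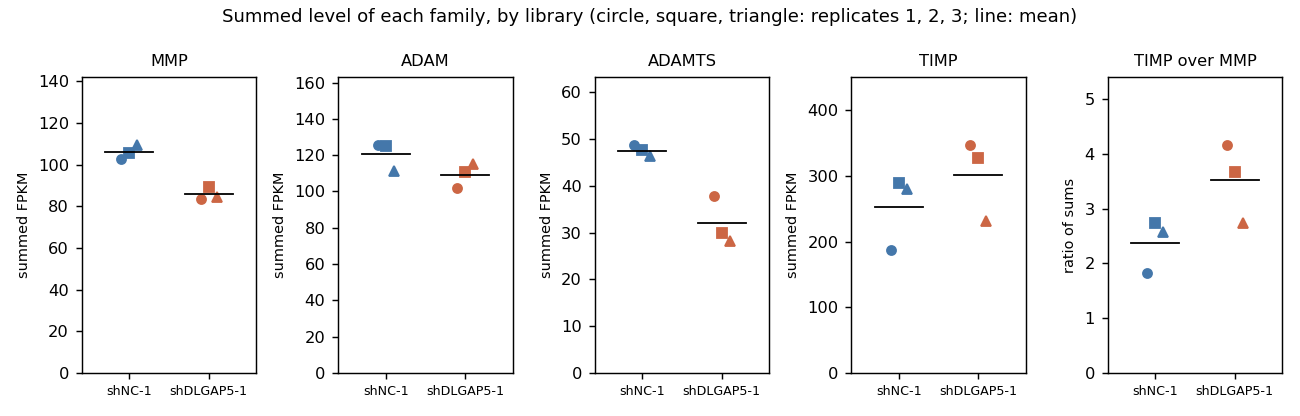
Summed FPKM of all MMP, ADAM, ADAMTS and TIMP members and the ratio of the TIMP sum to the MMP sum, by library, with circles, squares and triangles for replicates 1, 2 and 3 and lines for means. The MMP and ADAMTS sums are lower in every shDLGAP5-1 library, while the ADAM and TIMP sums overlap.

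The other 44 members did not pass the filter. ADAM2, ADAM7, ADAM18, ADAM29, ADAM30, MMP8, MMP20 and MMP27 were listed at 0 in all 6 libraries, and 28 were above 0 but never reached 0.5 FPKM. Those below it included the gelatinase MMP9, at 0.0313 to 0.192 FPKM, and the aggrecanases ADAMTS4, at most 0.0192 FPKM, and ADAMTS5, at most 0.213 FPKM. The gelatinase MMP2 reached 0.5 FPKM only in shNC-1 replicate 1.

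MMP3, stromelysin-1, was at 1.40, 0.885 and 1.46 FPKM in shNC-1 and 0.0802, 0.119 and 0 FPKM in shDLGAP5-1, and so missed the filter by 1 shNC-1 library. At the estimated depths these are about 60.1, 50.3 and 72.4 fragments in shNC-1 and 2.18, 3.25 and 0 in shDLGAP5-1. MMP3 reached 0.5 FPKM, the level for naming an untested member, in the shNC-1 libraries alone, so it had to differ in level. Fitted without a filter, MMP3 was lower by a log2 value of −1.07 (standard error 0.13, limma adjusted p = 0.0157). In that fit 6.59% of 31433 genes passed.

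ADAMTS13, the protease of von Willebrand factor, was at 0.0699, 0.0822 and 0.0857 FPKM in shNC-1 and 0.757, 0.608 and 0.631 FPKM in shDLGAP5-1. ADAMTS13 reached 0.5 FPKM, the level for naming an untested member, in the shDLGAP5-1 libraries alone, so it had to differ in level. Without a filter it was higher by 0.62 (standard error 0.06, limma adjusted p = 0.0102). It overlaps REXO4 on the opposite strand, which had means of 21.6 and 17.9 FPKM. ADAMTS2, a procollagen protease, was at 0.0956, 0.0882 and 0.0489 FPKM and 0.283, 0.240 and 0.284 FPKM, with a log2 fold change of 0.24 without a filter (standard error 0.04, limma adjusted p = 0.0240). ADAMTS2 never reaches 0.5 FPKM and was singled out after its values were seen.

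The remaining low members did not pass without a filter either. ADAMTS16 was at 0.924, 1.20 and 0.909 FPKM in shNC-1 and 0.682, 0.521 and 0.657 FPKM in shDLGAP5-1, lower in each library of the latter (limma adjusted p = 0.232). ADAMTS3, another procollagen protease, was at 0.866, 0.892 and 0.886 FPKM and 0.936, 0.830 and 0.966 FPKM, with overlapping groups. ADAM22 and ADAM11, which lack the zinc site and are known from neurons, overlapped too, at 0.651 to 1.06 and 0.301 to 0.663 FPKM over the 6 libraries. MMP7, matrilysin, was listed at 0 in all shNC-1 libraries and in shDLGAP5-1 replicate 1, and stood at 0.119 and 0.536 FPKM in replicates 2 and 3.

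RefSeq promoter sequences (GRCh38.p14) were matched by symbol for 39 of the 66 members, 15 of them tested, and were searched on both strands for 5 motifs in the 250 bases before the start. Members without a matched sequence included MMP1, MMP3, MMP17, ADAM9 and ADAMTS1, whose promoters were therefore not searched. A member was counted when any of its promoter sequences held the motif. The percentages beside the counts are shares of distinct promoter sequences, so member counts can be raised against them. The GC box GGGCGG, the letters bound by Sp1, was in 13 of 15 tested and 13 of 24 untested members, beside 42.6% of 34796 promoters and 64.7% of the promoters of tested genes. The TATA box TATAAA was in none of the 15 tested members and in 7 of the 24 untested ones (ADAMTS10, MMP7, MMP8, MMP10, MMP20, MMP21 and MMP26), beside 10.8% and 5.6%. The AP-1 motif TGANTCA was in ADAMTS12 and in the untested MMP7, MMP10 and MMP20, beside 6.6% and 4.5%. The ETS motif CCGGAAG was in ADAM17 alone, beside 8.5% and 14.9%, and a motif of interferon response elements was in no member, beside 3.0% and 2.4%. The GC box can overlap copies of itself, and the other motifs did not overlap it in the stretches shown.

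The promoters of ADAM8 (chr10:133276869-133276988, minus strand) and ADAMTS7 (chr15:78811465-78811584, minus strand), genes that rose, are set beside that of MMP10 (chr11:102780629-102780748, minus strand), stromelysin-2, which was under the filter at 0.232, 0.183 and 0.209 FPKM in shNC-1 and 0.00955, 0.162 and 0.0918 FPKM in shDLGAP5-1, lower in each shDLGAP5-1 library (limma adjusted p = 0.201 in the fit without a filter). Each is the 120 bases before the RefSeq start, 5′ to 3′ on the gene's strand, with the letters of the 5 motifs in capitals.
ADAM8: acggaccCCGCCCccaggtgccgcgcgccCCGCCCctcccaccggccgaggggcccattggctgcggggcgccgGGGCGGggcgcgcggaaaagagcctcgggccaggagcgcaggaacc
ADAMTS7: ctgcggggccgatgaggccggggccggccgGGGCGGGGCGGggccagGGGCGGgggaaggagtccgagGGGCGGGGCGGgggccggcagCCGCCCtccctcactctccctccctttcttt
MMP10: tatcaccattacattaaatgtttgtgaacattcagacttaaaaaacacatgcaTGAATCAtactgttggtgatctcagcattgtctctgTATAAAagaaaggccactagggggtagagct
The capitals of ADAM8 and ADAMTS7 are GC boxes on either strand, 3 and 6 of them. Those of MMP10 are an AP-1 motif and a TATA box, which begin 67 and 31 bases before the start. No promoter of a member that fell is shown. Among members with a promoter sequence, the GC box was in 4 of 4 that rose and 2 of 3 that fell, beside 64.7% of the promoters of tested genes. The AP-1 motif and the TATA box were in 0 of these 4 and 0 of these 3. MMP17, which rose, and MMP1, ADAM9 and ADAMTS1, which fell, had no promoter sequence and are not in these counts. A match is a run of letters and was not tested as a site.

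Genes around these proteases were read from lists by role. Of 4 other inhibitors 2 were tested and neither passed, beside 24.8% of all genes tested (median log2 fold change −0.14, beside 0.03 over all genes). TFPI2, a Kunitz-type inhibitor of the matrix, was at 124, 128 and 121 FPKM against 111, 86.4 and 74.8 FPKM (−0.47, standard error 0.15, limma adjusted p = 0.0597), lower in each shDLGAP5-1 library, and passed with the length trend removed, with median-ratio scaling, at the same total and without shDLGAP5-1 replicate 1. RECK, a membrane-anchored inhibitor of MMPs, was at 4.91, 5.79 and 5.50 FPKM against 6.75, 6.42 and 5.67 FPKM (0.19, standard error 0.12, limma adjusted p = 0.294).

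Proprotein convertases remove the propeptides of many ADAM, ADAMTS and membrane MMP proteins. Of 9 on the list 5 were tested and none passed (median 0.29), beside 24.8% of all genes tested. FURIN, the best known of them, was at 20.3, 19.6 and 18.6 FPKM against 21.1, 26.3 and 25.1 FPKM, higher in each shDLGAP5-1 library (0.29, standard error 0.12, limma adjusted p = 0.109). PCSK4 was at 0.687, 0.355 and 0.825 FPKM against 1.44, 1.02 and 2.00 FPKM (0.61, standard error 0.19, limma adjusted p = 0.0521), and met the filter through the shDLGAP5-1 libraries alone. The remaining log2 fold changes were −0.26 for PCSK7, 0.30 for MBTPS1 and −0.07 for PCSK6. Without shDLGAP5-1 replicate 1, FURIN and MBTPS1 passed, and without replicate 2, PCSK4 passed. FURIN also passed with the length trend removed. PCSK4 also passed with a replicate block, both with and without removal of the length trend.

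Plasmin, made by the plasminogen activators, can activate secreted MMPs. Of 7 genes 6 were tested and none rose, beside 15.3% of all genes tested. PLAUR, the urokinase receptor, was at 61.0, 57.7 and 67.7 FPKM in shNC-1 and 30.3, 33.4 and 30.2 FPKM in shDLGAP5-1 and fell by 0.96 (standard error 0.11, limma adjusted p = 0.00176).

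SERPINB2, an inhibitor of urokinase, was at 40.7, 40.1 and 39.0 FPKM in shNC-1 and 2.35, 1.87 and 30.5 FPKM in shDLGAP5-1, where replicate 3, the library with leukocyte markers, stood near shNC-1. It did not pass (−2.61, standard error 0.84, limma adjusted p = 0.0601) and did without that library and with median-ratio scaling; the part of the leukocyte markers in this value was not tested. PLAU, the urokinase itself, was at 327, 353 and 369 FPKM against 291, 353 and 319 FPKM with overlapping groups. The log2 fold changes of PLAU, PLAT and SERPINE2 were −0.12, 0.32 and 0.27, with limma adjusted p = 0.477, 0.113 and 0.429.

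Partners that carry ADAM17 and ADAM10 to the cell surface numbered 9, all tested, of which 2 rose and none fell (median 0.10), beside 15.3% higher and 9.52% lower of all genes tested. TSPAN15, a tetraspanin that binds ADAM10, was at 5.76, 6.74 and 7.18 FPKM in shNC-1 and 17.8, 14.0 and 13.4 FPKM in shDLGAP5-1 and rose by 1.08 (standard error 0.14, limma adjusted p = 0.00335). RHBDF2, the iRhom2 protein that brings ADAM17 to the surface, was at 16.3, 15.4 and 15.3 FPKM against 22.9, 24.9 and 22.4 FPKM and rose by 0.55 (standard error 0.10, limma adjusted p = 0.00933). The call of RHBDF2 was lost without shNC-1 replicate 2 and with a replicate block. TSPAN5, another ADAM10 tetraspanin, was lower in each shDLGAP5-1 library and did not pass (−0.31, standard error 0.10, limma adjusted p = 0.0584), but did with median-ratio scaling and with the length trend removed. TSPAN17 and FRMD8 had overlapping groups and log2 fold changes of −0.50 and 0.20 (limma adjusted p = 0.223 and 0.332).

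Proteins cut at the membrane by ADAMs numbered 24, of which 16 were tested, 3 rose and 3 fell (median 0.05), against the same 15.3% and 9.52% of all genes. HBEGF, the heparin-binding EGF that ADAM17 and ADAM12 can release, was at 23.6, 23.0 and 24.3 FPKM in shNC-1 and 9.99, 11.2 and 10.3 FPKM in shDLGAP5-1 and fell by 1.10 (standard error 0.10, limma adjusted p = 0.00103). NRG1, neuregulin, was at 8.26, 8.15 and 5.46 FPKM against 2.97, 2.15 and 3.75 FPKM and fell by 1.07 (standard error 0.21, limma adjusted p = 0.0121), a call lost without shNC-1 replicate 2. Among EGF receptor family ligands the direction differed, since TGFA, at 4.55, 4.03 and 4.02 FPKM against 7.17, 7.37 and 7.53 FPKM, rose by 0.69 (standard error 0.11, limma adjusted p = 0.00618).

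CXCL16, a chemokine shed by ADAM10, was at 1.17, 0.688 and 0.880 FPKM against 2.85, 4.11 and 3.44 FPKM and rose by 1.22 (standard error 0.16, limma adjusted p = 0.00287). SDC4, the proteoglycan syndecan-4, was at 229, 224 and 232 FPKM against 396, 387 and 308 FPKM and rose by 0.66 (standard error 0.13, limma adjusted p = 0.0121). The call of SDC4 was lost without shNC-1 replicate 2 and with the replicate block. The other gene that fell was NOTCH2, a receptor cut by ADAM10, by 0.80 (standard error 0.22, limma adjusted p = 0.0371), which is outside the 5 smallest p-values of the list and was named after its value was seen. Its call was lost in 4 of the 6 fits without 1 library, in the fit without a filter and with the replicate block. Without shDLGAP5-1 replicate 3 the list had 3 higher and 5 lower genes. In that fit 24.7% of all genes tested passed, 56.6% of them as higher.

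The list of MMP regulators held 13 genes, all tested, of which 2 rose and 3 fell (median −0.12), where 15.3% of all genes tested rose and 9.52% fell. AP-1 subunits, which bind promoters of several MMP genes, moved in both directions. JUND was at 37.8, 35.6 and 37.4 FPKM in shNC-1 and 90.8, 83.3 and 75.5 FPKM in shDLGAP5-1 and rose by 1.15 (standard error 0.11, limma adjusted p = 0.00109), and JUNB, at 31.3, 37.6 and 38.3 FPKM against 75.8, 70.5 and 61.8 FPKM, rose by 0.94 (standard error 0.13, limma adjusted p = 0.00353). JUN was at 62.1, 60.5 and 62.7 FPKM against 37.2, 41.3 and 40.6 FPKM and fell by 0.63 (standard error 0.09, limma adjusted p = 0.00504). FOSB was at 5.47, 5.77 and 7.85 FPKM against 3.06, 4.52 and 3.86 FPKM and fell by 0.61 (standard error 0.18, limma adjusted p = 0.0426). Its call was lost whichever of the 6 libraries was left out, without a filter, and with the replicate block. ETS2, an ETS factor, was at 34.0, 33.9 and 31.9 FPKM against 16.5, 19.6 and 19.2 FPKM and fell by 0.82 (standard error 0.11, limma adjusted p = 0.00306).

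Among 7 ADAMTS-like genes, which have the accessory domains of ADAMTS proteins without the protease, 3 were tested and 1 rose (median 0.44), beside 15.3% of all genes. PAPLN, papilin, was at 0.387, 0.331 and 0.365 FPKM in shNC-1 and 2.13, 2.62 and 4.05 FPKM in shDLGAP5-1 and rose by 1.50 (standard error 0.18, limma adjusted p = 0.00262). It met the filter through the shDLGAP5-1 libraries alone, so it had to differ in level. THSD4 was at 15.3, 14.4 and 11.3 FPKM against 13.9, 20.8 and 22.8 FPKM and ADAMTSL5 at 5.31, 5.44 and 5.06 FPKM against 5.65, 6.27 and 4.45 FPKM, both with overlapping groups (limma adjusted p = 0.155 and 0.888); THSD4 passed without shDLGAP5-1 replicate 1 and with the length trend removed. Of 9 other metzincins BMP1, the procollagen C-proteinase, was the only one tested, at 2.91, 2.92 and 2.58 FPKM against 3.75, 4.64 and 5.91 FPKM. It rose by 0.58 (standard error 0.16, limma adjusted p = 0.0362), and the call held only in the fit without shDLGAP5-1 replicate 1 among the 6 fits without 1 library. The call was also lost without a filter, at the same total and with the replicate block. Of 4 hyalectan proteoglycans, the substrates of ADAMTS1, VCAN (versican) was the only one tested, at 3.04, 4.06 and 3.06 FPKM against 3.10, 4.27 and 3.06 FPKM with overlapping groups (0.03, standard error 0.16, limma adjusted p = 0.915, 95% interval −0.35 to 0.40).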

How the data were processed

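The table the authors deposited has 58825 genes and no named unit. Its values have decimals, sum to 413001 to 487559 per library, and in low single-exon genes pile up when multiplied by gene length, as FPKM do, so the deposited values were read as FPKM. The sources used here name no aligner, quantifier, annotation or strand setting. Of the gene identifiers 99.5% are in GENCODE 29, 87.1% of these with the same GRCh38 coordinates. Columns of shDLGAP5-1 carry a construct number and were assigned as the only other group. Fragments per gene and depth were estimated from the steps of low single-exon genes and are approximate.

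Limma 3.58.1 (R 4.3.3, trended variance) was run on log2(FPKM + 1) of the 12714 genes that reached 1 FPKM in 3 or more libraries, with no term but the group and p-values adjusted by Benjamini-Hochberg over all of them; the script was tested on simulated data. The alternatives comprised another pseudocount (0.1), a filter of 5 FPKM or none, same-total and median-ratio scaling and quantile normalization (on the genes of the main test), removal of a transcript length trend (lowess, span 0.3), a replicate block, and each library left out. Every tested member was named, untested ones where a library reached 0.5 FPKM, and in lists of over 8 tested genes those with the 5 smallest p-values; a gene that this rule names is not reported here. Members, lists and markers were chosen with earlier results of these data known, and the membrane and secreted MMP groups, the zinc site pattern (widened after ADAMTS8 was missed), the motifs and the promoters shown were chosen after values were seen. Coding sequences were translated with Biopython 1.88 in Python 3.11.15.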

Additional observations from a re-analysis of the deposited data

How the results depend on the processing

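Over the 22 tested members, 297 results under an alternative kept their side of the threshold, 288 of them with the same sign. The other 9, none passing, changed sign, in 2 settings for ADAM19, 3 for ADAM23 and 4 for ADAMTS12. A further 20 no longer passed, 4 newly passed and none that passed changed sign. ADAM8, ADAM9, ADAM12, ADAMTS1, ADAMTS7, MMP1, MMP11 and MMP17 passed in every alternative in which they were tested. The count of all genes passing, 3155, became 2071 without a filter, 1464 with a replicate block, and 1335 to 3141 without 1 library (1511, 1335 and 1937 without shNC-1 replicates 1, 2 and 3 and 2056 without shDLGAP5-1 replicate 2). With a filter of 5 FPKM, which tests fewer members, 3 members were higher and 5 lower, beside 2244 of all 8781 genes tested. MMP17 met that filter through the shDLGAP5-1 libraries alone and ADAM12 through the shNC-1 libraries alone, so both had to differ in level. Without 1 library 4 to 5 members were higher and 4 to 6 lower. The cause of the other shifts was not tested. Same-numbered libraries did not deviate together (correlations −0.155, 0.021 and −0.157), so the numbers are not taken as pairs. With the block and the length trend removed 4 members rose and 6 fell, beside 2308 of all 12714 genes tested. With the replicate block alone 4 members rose and 4 fell, beside 1464 of the 12714. Under the block ADAM15, MMP14 and ADAMTS6 did not pass. Members under 0.5 FPKM rest on few fragments, and on fewest in shDLGAP5-1 replicates 1 and 2, with 13500000 fragments each.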
